A study of Drosophila melanogaster with 28 samples.

Results

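The genes described here are those with ribosome footprints in whole adult ovaries of bam, hs-bam flies 38 h after a heat shock (38 h AHS), set against the same ovaries with no heat shock (no HS). A gene was included when its Ribo-seq value exceeded 10 FPKM, a footprint density scaled to the length of the coding sequence and to the size of the library, at 38 h AHS or at no HS, and 6447 of the 13968 genes measured met that rule (46.2%). At the edge of the rule, CG8412 was just inside with 10.0 FPKM at 38 h AHS and 9.19 at no HS, and CG43088 was just outside with 7.85 and 9.99 FPKM at the same 2 times.

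Both groups shared 1 genotype. In a w background the females carried 1 copy of the driver nosP-GAL4-NGT40, 2 copies of the bam deletion allele bam86, and the transgene P{w[+mC]=hs-bam.O}11d on 1 of the chromosomes with that allele. The 38 h AHS females were kept at 37 °C for 1 h, then at 34 °C for 2 h, and returned to 25 °C until dissection, while the no HS females had no such treatment. Each group had 2 biological replicates of the Ribo-seq, and the deposited value of a gene is a single Cuffdiff estimate over both replicates with lower and upper 95% bounds. No value per replicate was used, so there is no SD, no test and no p-value, and differences were read against the bounds. The heat shock promoter acts in every cell of the fly, the samples pool the ovaries of many females, and the muscle sheath and somatic cells of the ovary were included with the germline.

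Bam is the differentiation factor of the female germline stem cell (GSC). Without it the germline fills the ovary with GSC-like cells, and with it the daughter cell divides into a cyst of connected cells, of which one becomes the oocyte. Bam acts with its partner Bgcn on the translation of target mRNAs, and much of oocyte formation is under translational control, through RNA-binding proteins such as Orb, Bru1 and Staufen. In Ribo-seq, RNase leaves only the stretch of mRNA inside a ribosome, and the density of these footprints on a coding sequence follows both the amount of mRNA and the number of ribosomes on it.

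The labels were checked on bam itself and on heat shock genes. Footprints of bam were at 0.5 h AHS far above both groups, with 2934 FPKM, while Hsp26, a small heat shock protein, reached 21084 FPKM. The germline markers vas, aub, piwi, AGO3, nos, zpg, ovo, otu and Sxl were all members. Of the 12 germline markers 11 passed 10 FPKM, and osk, whose product marks the posterior of the oocyte, stayed outside. The summed footprint level of the germline list was 2092 FPKM at 38 h AHS and 2008 FPKM at no HS. Of its 11 members 7 were lower and 4 higher at 38 h AHS, with a median log2 change of -0.18. In whole ovaries a change in the number of cells of a type and a change in the RNA per cell cannot be told apart.

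FPKM values carry no depth, but in genes with a single annotated coding sequence the lowest values came in steps. The step, taken as the value of 1 footprint on a coding sequence of 1 kb, was about 0.165 FPKM at 38 h AHS and about 0.135 FPKM at no HS. The threshold of 10 FPKM then corresponds to some 60.6 footprints per kb at 38 h AHS and 74.1 at no HS. The median half-width of the bounds was 25.9% of the value at 38 h AHS and 25.9% at no HS.

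Some members are shown by sequence because the reading of their footprints rests on it. The maternal alpha-tubulin gene alphaTub67C belongs to a family of close copies, and its first 60 coding bases (dm6, chr3L:9681414-9681959, + strand, with an intron in between) are set beside those of the general isotype alphaTub84B (chr3R:7086742-7087290, + strand, likewise), with the 17 differing bases in capitals.
alphaTub67C: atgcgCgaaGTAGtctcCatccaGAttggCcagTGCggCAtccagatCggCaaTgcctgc
alphaTub84B: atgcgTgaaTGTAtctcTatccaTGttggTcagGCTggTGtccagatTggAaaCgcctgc
Words of 28 bases, the shortest footprint that was cut from the gel, were compared between the annotated coding sequences of all genes. In alphaTub67C 0% of such words also occurred in the coding sequence of another gene, against 17.4% in alphaTub84B, so a footprint within alphaTub67C has no second coding sequence to map to without a mismatch.

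The mitochondrial genes ATP8 and ATP6 share one mRNA, and the end of the ATP8 coding sequence overlaps the start of that of ATP6. The junction (dm6, chrM:4032-4091, + strand) is printed with the 7 bases that belong to both in capitals.
ATP8/ATP6 junction: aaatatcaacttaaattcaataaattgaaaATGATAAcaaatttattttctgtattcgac
Both genes have one merged locus in the deposited table, and footprints over these bases cannot be assigned to either. A further sequence shows how short some members are. The whole coding sequence of gdl-ORF39, without its stop codon, has 117 bases (dm6, chr3L:15509549-15509665, + strand), with its start codon in capitals.
gdl-ORF39: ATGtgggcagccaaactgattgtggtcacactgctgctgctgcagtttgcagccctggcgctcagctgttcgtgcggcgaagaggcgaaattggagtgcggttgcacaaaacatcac
This gene had 47.3 FPKM at no HS and was listed at 0 at 38 h AHS. Footprints of 28 to 34 nt can lie on it without overlap at only a few places.

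Most members had similar footprint density in both groups. Genes were called past a 1.6-fold difference in FPKM, and 246 members were called higher at 38 h AHS (3.82% of the 6447) and 338 were called lower (5.24%), while 5863 were not called (90.9%). With the further demand that the bounds do not overlap (bounds apart), 106 were higher (1.64%) and 128 were lower (1.99%). The median log2 change over the members was -0.04, with 5% of genes below -0.68 and 5% above 0.58. These counts describe the 2 columns and carry no test.

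**Figure D1:**
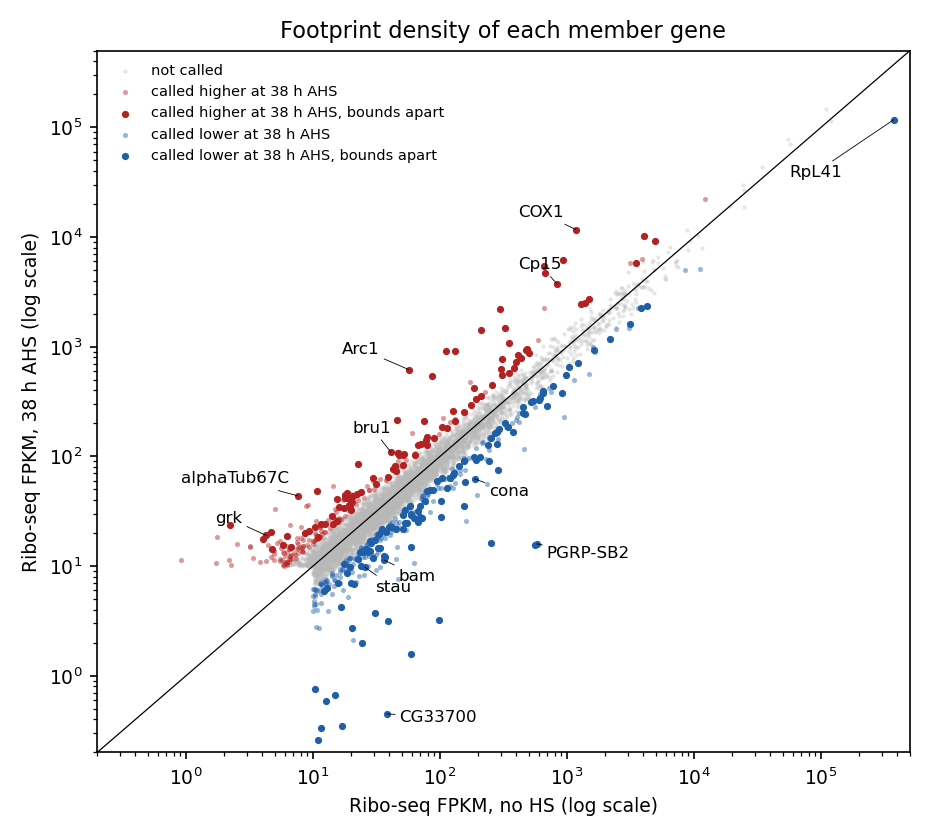
Ribo-seq FPKM of each member above 0 in both columns, at 38 h AHS (vertical, log scale) and at no HS (horizontal, log scale). Red and blue points are called higher and lower at more than 1.6-fold, larger points have bounds that do not overlap, and the line marks equal values. COX1 lies at 11703 FPKM at 38 h AHS and 1175 at no HS.

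Among genes with roles in the cyst and the egg, footprints were denser at 38 h AHS on a set that is known from the developing oocyte. alphaTub67C (chr3L:9681414-9683285), which encodes the alpha-tubulin of the egg, had 43.7 FPKM (bounds 33.4 to 53.9) at 38 h AHS, against 7.62 FPKM (bounds 4.31 to 10.9) at no HS, 5.73-fold higher. gurken (grk, chr2L:8431545-8433082), the TGF-alpha-like ligand that the oocyte sends to the follicle cells, had 19.1 FPKM (bounds 11.6 to 26.6) at 38 h AHS and 4.27 FPKM (bounds 0.932 to 7.62) at no HS, 4.46-fold higher. In both genes the lower bound at 38 h AHS lay above the upper bound at no HS.

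The RNA-binding regulators of the cyst split in both directions. bruno 1 (bru1, chr2L:12241080-12310947), a repressor of translation in the oocyte, had 109.8 FPKM (bounds 85.2 to 134) at 38 h AHS, against 41.01 FPKM (bounds 30.3 to 51.7) at no HS (log2 change 1.42). orb (chr3R:23265856-23279076), the germline CPEB protein, had 103 FPKM (bounds 79.3 to 126) at 38 h AHS and 50.7 FPKM (bounds 39.1 to 62.3) at no HS (log2 change 1.02). Rbp9 (chr2L:2961231-2964118), an ELAV-family protein needed for cyst differentiation, had 42.0 FPKM (bounds 31.8 to 52.3) at 38 h AHS and 19.0 FPKM (bounds 13.1 to 24.9) at no HS (log2 change 1.14). The bounds of all these genes were apart.

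On the lower side, staufen (stau, chr2R:18119784-18124878), a double-stranded RNA-binding protein of mRNA localisation, had 9.78 FPKM (bounds 6.87 to 12.7) at 38 h AHS and 25.6 FPKM (bounds 19.6 to 31.6) at no HS (log2 change -1.39), also with bounds apart. Sex lethal (Sxl), the switch protein of female germline fate, had 247 FPKM (bounds 53.3 to 441) at 38 h AHS and 418 FPKM (bounds 0 to 849) at no HS, and those bounds overlapped widely.

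Footprints of bam and its partner were lower at 38 h AHS than at no HS. The females of both groups carried only the deletion allele of bam, beside the hs-bam transgene with its heat shock promoter. How much of the bam footprints came from the transgene was not tested. The bam values are thus not read as the level of the native gene. bam (chr3R:25243526-25244976) had 11.4 FPKM (bounds 6.94 to 15.8) at 38 h AHS and 36.2 FPKM (bounds 26.7 to 45.7) at no HS, 3.18-fold lower, and bgcn (chr2R:23853562-23858699) had 12.4 FPKM (bounds 9.27 to 15.6) at 38 h AHS and 36.4 FPKM (bounds 28.2 to 44.6) at no HS, 2.93-fold lower. bgcn shares its locus with Pym in the table, a gene of the exon junction complex, and Pym was not called. Pxt, a peroxidase of the ovary, had 11.9 FPKM (bounds 8.35 to 15.5) at 38 h AHS and 29.8 FPKM (bounds 22.6 to 36.9) at no HS, after 87.6 FPKM at 9 h AHS. nanos (nos), the translational repressor that keeps GSCs, was not called, with 98.9 FPKM at 38 h AHS and 112 FPKM at no HS. Over all members 3.82% were called higher and 5.24% lower. Of the 18 members of the list of Bam partners and cyst regulators, 3 were called higher and 5 lower, with a median log2 change of -0.27. The 3 higher ones were bru1, orb and Rbp9, and the 5 lower ones were bam, bgcn, stau, Pxt and Sxl.

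**Figure D2:**
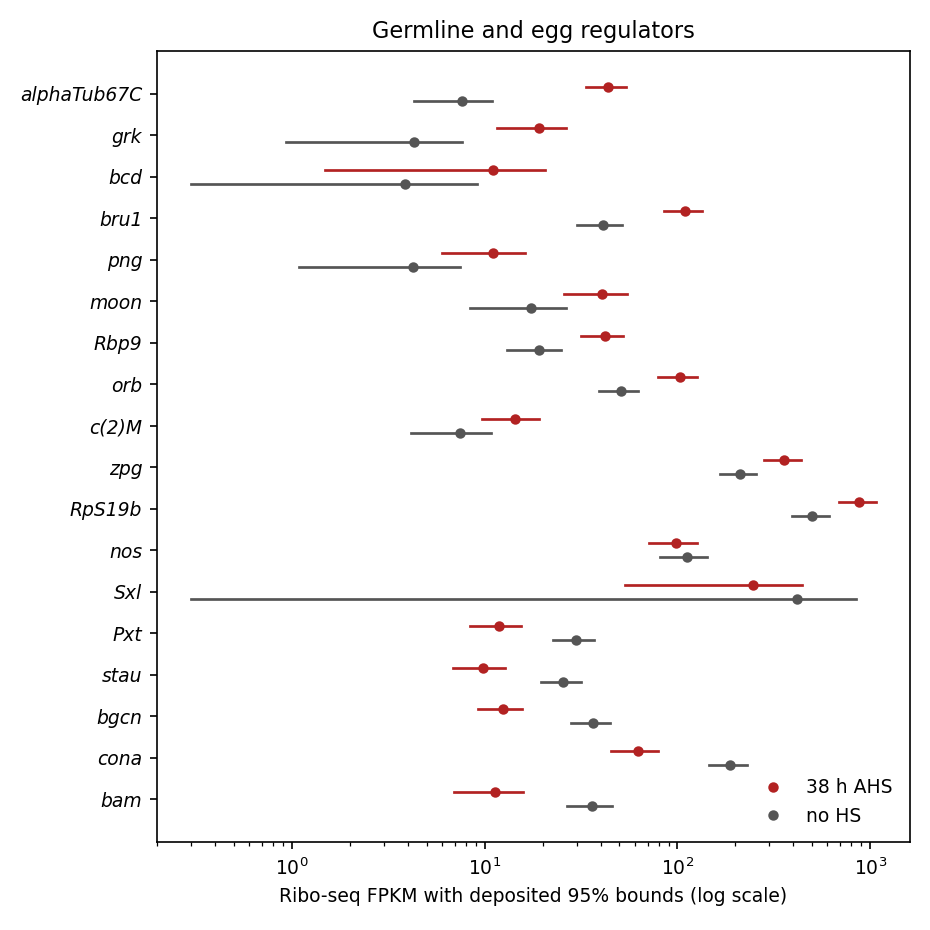
Ribo-seq FPKM (log scale) of 18 germline and egg genes at 38 h AHS (red, upper mark of each pair) and at no HS (grey, lower mark), with lines for the deposited 95% bounds, and lower bounds listed at 0 are drawn to the left end. The bounds of alphaTub67C, grk, bru1, Rbp9 and orb are apart with the higher value at 38 h AHS, and those of Pxt, stau, bgcn, cona and bam are apart with the lower value at 38 h AHS.

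Other rises with bounds apart and RNA over 10 FPKM took in genes of varied function, named here after their values were seen. CG43191 had 23.8 FPKM (bounds 13.7 to 33.9) at 38 h AHS and 2.24 FPKM (bounds 0 to 5.26) at no HS, 10.6-fold higher. Corp, a regulator of p53, had 85.3 FPKM at 38 h AHS and 22.4 at no HS and shares its locus with another gene. Nost had 18.7 FPKM at 38 h AHS and 6.23 at no HS, CG14314 had 15.7 and 5.76, and CG15930 had 40.6 and 15.6. In all of them the RNA differed in the same direction. Tina-1 was the most heavily footprinted of these, with 773 FPKM (bounds 562 to 983) at 38 h AHS and 305 FPKM (bounds 211 to 399) at no HS. The germline gap junction gene zpg had 359 FPKM at 38 h AHS and 211 at no HS, also with bounds apart. Among the falls of the same kind CG32814 was the largest, with 35.1 FPKM (bounds 23.8 to 46.4) at 38 h AHS and 154 FPKM (bounds 118 to 189) at no HS, 4.37-fold lower, followed by CG14229 with 14.9 and 58.8 FPKM and by Trf5 with 4.22 and 16.6 FPKM. Trf5 shares its locus with another gene.

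In the wider list of oocyte and egg regulators, 18 of 30 measured genes were members. Of these 6 were called higher and 1 lower, beside 3.82% higher and 5.24% lower over all members. Besides alphaTub67C, grk and orb, the higher ones were bicoid (bcd), the anterior determinant, with 11.0 FPKM at 38 h AHS and 3.86 at no HS, pan gu (png), a kinase of egg activation, with 11.1 and 4.27 FPKM at the same 2 times, and moonshiner (moon), which serves transcription of piRNA source loci, with 40.4 FPKM at 38 h AHS and 17.4 at no HS. For bcd, png and moon the bounds overlapped. Of the called genes alphaTub67C, grk, bcd and png passed 10 FPKM only at 38 h AHS, and stau only at no HS. Their membership thus rested on the column with the higher value, so these counts of calls were partly given by the rule. The only lower one was stau, and the median log2 change of the list was -0.13, beside -0.04 over all members.

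Several egg genes stayed under 10 FPKM of footprints in both columns and are therefore not members, although their RNA was higher at 38 h AHS. For osk the RNA-seq gave 58.1 FPKM at 38 h AHS and 0.731 FPKM at no HS, beside 1.64 and 0.526 FPKM of footprints. For deadhead (dhd), the thioredoxin of the egg, the RNA-seq gave 142 FPKM at 38 h AHS and 12.8 at no HS, and the footprints 8.17 and 3.36 FPKM. matrimony (mtrm), a meiotic inhibitor of Polo kinase, had 27.5 FPKM of RNA at 38 h AHS and 3.40 at no HS, and 3.94 and 1.56 FPKM of footprints. The yolk receptor gene yl had 33.3 FPKM of RNA at 38 h AHS and 13.6 at no HS, and 4.00 and 3.51 FPKM of footprints. In each of these genes the listed fold of the RNA was larger than that of the footprints. The footprint bounds overlapped in osk (0.289 to 3.00 at 38 h AHS, 0 to 1.61 at no HS) and in mtrm (0 to 8.65, 0 to 4.98). Their footprint folds are thus not resolved. The meiotic gene mei-218, also under 10 FPKM of footprints in both columns, went the other way. Its fold was 1.74 in the footprints, with overlapping bounds, and 1.47 in the RNA. gnu, an activator of the Png kinase, had fewer footprints at 38 h AHS, with 1.69 FPKM against 7.40 at no HS, beside 53.9 and 35.5 FPKM of RNA.

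The meiotic lists held calls in both directions, beside shares of 3.82% higher and 5.24% lower over all members. Of 16 members of the synaptonemal complex and cohesion list, c(2)M and solo were called higher and cona lower, and the median log2 change was 0.06. The central element gene corona (cona, chr3R:18385922-18386745) had 62.4 FPKM (bounds 45.3 to 79.5) at 38 h AHS and 187 FPKM (bounds 146 to 229) at no HS, 3.00-fold lower. The kleisin-like gene c(2)M had 14.3 FPKM (bounds 9.63 to 19.0) at 38 h AHS and 7.48 FPKM (bounds 4.15 to 10.8) at no HS, with overlapping bounds. In the recombination list 3 of 14 members were called higher and none lower (median log2 change 0.18). These were mei-W68, narya and hdm, each with bounds that overlap. mei-W68, the Spo11 protein that makes meiotic breaks, had 13.0 FPKM at 38 h AHS and 4.91 at no HS. narya, a RING-domain gene, had 53.8 and 26.8 FPKM at the same times, and hdm had 10.3 and 6.24 FPKM. Because c(2)M, mei-W68 and hdm passed 10 FPKM only at 38 h AHS, the membership rule favoured their calls as higher.

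In the division and growth lists the calls were counted beside the same shares over all members. Of 44 DNA replication genes, Pol32, a subunit of DNA polymerase delta, was called lower with 13.3 FPKM at 38 h AHS and 27.3 at no HS, and the other 43 were not called (median log2 change -0.06). Among 25 cyclins and cell cycle switches png alone was called, as above. Of the 90 cytosolic ribosomal protein genes 2 were called higher and 4 lower, with a median log2 change of -0.19 and 64 of 90 below 0. In 45 of the 90 the columns of 5, 9, 28 and 38 h AHS were all below those of no HS, 0.5 and 18 h AHS, as in 656 of the 6447 members, and the part of this split of the times in the list's lower level was not tested. RpS19b, the germline paralog of RpS19, had 877 FPKM (bounds 688 to 1066) at 38 h AHS and 502 FPKM (bounds 392 to 611) at no HS, with bounds apart. RpL41 is a very short gene with a coding sequence of 75 bases and the highest FPKM at no HS among the list. It had 117230 FPKM at 38 h AHS and 372506 FPKM at no HS, and it made up most of the list's fall in summed level, since without it the list summed to 279255 FPKM at 38 h AHS and 289557 FPKM at no HS.

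No member of the proteasome list (32 members), the aminoacyl-tRNA synthetases (28), the germ granule and RNA decay list (19), the fusome and ring canal list (20), the histone variants (6) or the fat body and haemocyte markers (3) was called in either direction. Over all members 3.82% were called higher and 5.24% lower. A short list can thus hold no call, or very few, without differing from the members at large. The translation factors gave 1 of 44 higher, eIF4E6, and 1 lower, eIF4B. In the piRNA pathway moon was higher and Nxt1 lower among 33 members. Of 73 mitochondrial ribosomal proteins mRpS5 and mRpS17 were called lower, with bounds that overlap. The tubulins had alphaTub67C higher and gammaTub23C, a centrosomal tubulin, lower with 29.1 FPKM at 38 h AHS and 50.7 at no HS.

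**Figure D3:**
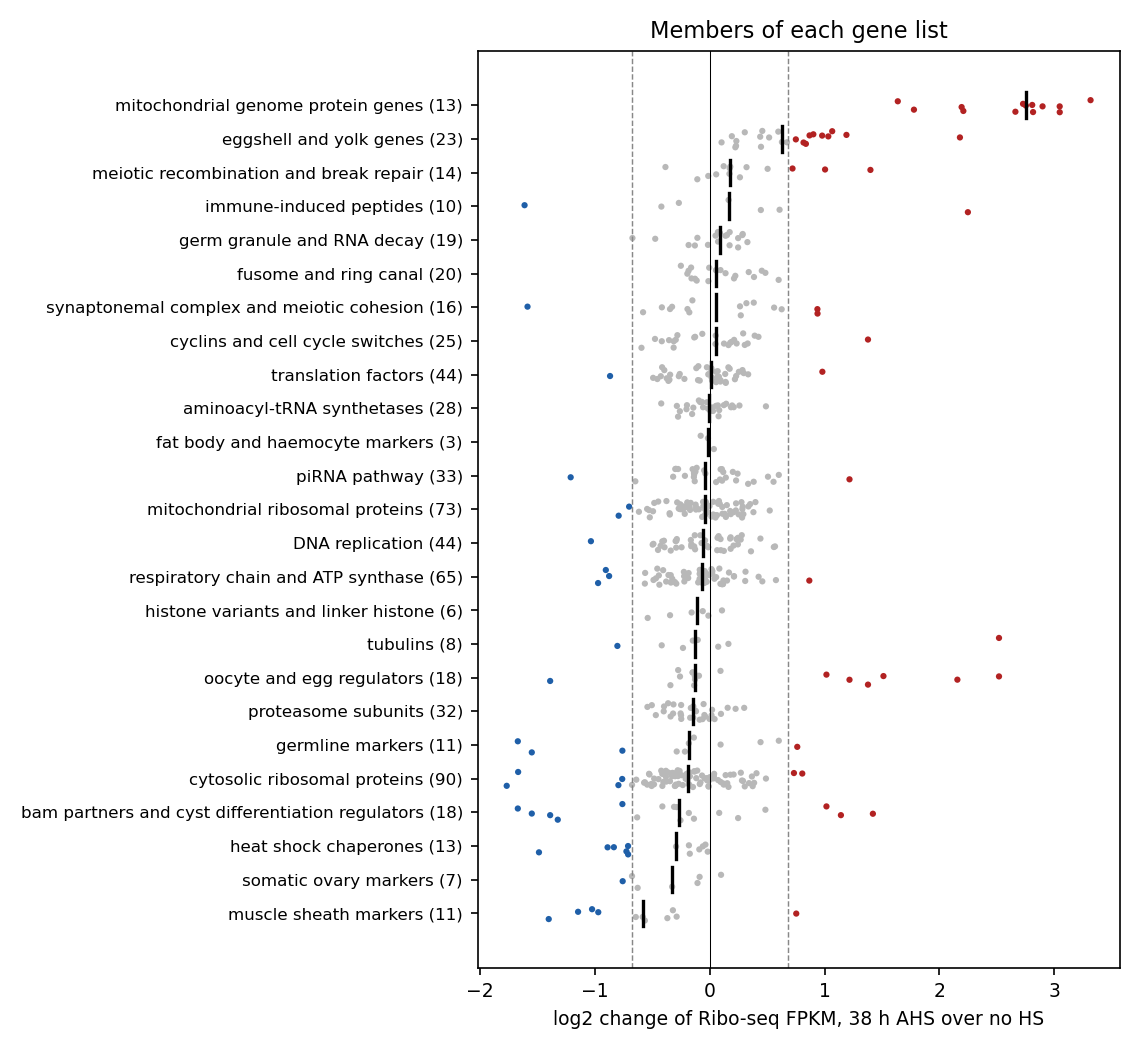
Log2 change of Ribo-seq FPKM, 38 h AHS over no HS, for each member of the gene lists (points; number of members in brackets), with the list median as a black bar and dashed lines at 1.6-fold. Red points are called higher and blue points lower, and all 13 mitochondrial genome genes lie right of the upper line, and most lists centre near 0.

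Eggshell and yolk genes leaned to higher footprint levels at 38 h AHS. All 23 members of the list had a log2 change above 0, of which 10 were called higher, none lower and 13 not called, and the median log2 change was 0.63. The 17 members over 10 FPKM of RNA had a larger median log2 change in the RNA-seq, 1.56. Over all members 3.82% were called higher and 5.24% lower in the footprints, with a median log2 change of -0.04. The chorion gene Cp15 had 3759 FPKM (bounds 2938 to 4580.3) at 38 h AHS and 830.2 FPKM (bounds 647 to 1014) at no HS, 4.53-fold higher, and stood at 5594 FPKM at 28 h AHS. The RNA of Cp15 was 75.2 FPKM at 38 h AHS and 1.06 at no HS. Cp36 had 846 FPKM of footprints at 38 h AHS and 414 at no HS, and Cp16 had 419 and 184 FPKM. Vitelline membrane genes were among the most heavily footprinted genes in both groups, with 148684 FPKM for Vm34Ca at 38 h AHS and 109093 at no HS. The yolk protein genes Yp1, Yp2 and Yp3 are in the list and were not called. The proteins of chorion and vitelline membrane are known products of the somatic follicle cells. The study treated genes of this kind as contaminants and left them out of its later analysis. The share of all footprints (FPKM times coding length) on the eggshell and yolk list was 15.5% at 38 h AHS and 11.8% at no HS. The list of somatic ovary markers (follicle, escort and cap cells) had 7 members, none called higher and 1 lower. Its summed level was 835 FPKM at 38 h AHS and 952 at no HS. Whether these markers follow the cells that make eggshell was not tested, nor was the source of the eggshell footprints.

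Muscle genes leaned to lower footprint levels at 38 h AHS. Of 11 members of the muscle sheath list, 4 were called lower and 1 higher, and the median log2 change was -0.58 in the footprints and 0.15 in the RNA-seq. Over all members 5.24% were called lower and 3.82% higher in the footprints. The troponin C gene TpnC73F had 27.5 FPKM (bounds 16.8 to 38.2) at 38 h AHS and 72.7 FPKM (bounds 52.2 to 93.2) at no HS, and the myosin light chain gene Mlc1 38.9 and 76.3 FPKM. The myosin heavy chain gene Mhc was the higher one, with 24.3 FPKM at 38 h AHS and 14.4 at no HS. The summed level of the list was 561 FPKM at 38 h AHS, against 844 at no HS, and its part in any other difference was not tested. In 8 of the 11 members (Act57B, Act87E, Mf, Mlc1, Mlc2, Prm, TpnC73F and up) the columns of 5, 9, 28 and 38 h AHS all lay below those of no HS, 0.5 and 18 h AHS, as in 10.2% of all members, and the part of this split of the times in the list's lower level was not tested.

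Heat shock chaperones were not raised at 38 h AHS. All 13 members of that list were under their no HS value, and 6 were called lower, 4 of them with bounds apart. In the RNA-seq the 12 members over 10 FPKM of RNA had a median log2 change of 0.16. Over all members 5.24% were called lower and 3.82% higher in the footprints, with a median log2 change of -0.04. Hsp26 had 324 FPKM (bounds 255 to 394) at 38 h AHS and 601 FPKM (bounds 469 to 732) at no HS, and Hsp27 549.5 and 979.9 FPKM. Hsp83, the fly Hsp90, was not called, with 987 FPKM at 38 h AHS and 1051 at no HS. Immune-induced peptides were few and short. Of 10 members BomS1, BomS4, BomS6 and BomT2 were called higher and Mtk lower, and the 3 with bounds apart were listed at 0 at no HS.

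Most of the largest rises were on the mitochondrial genome. Of the 15 largest rises with bounds apart, 11 were protein genes of the mitochondrial DNA, which are translated by the ribosomes of the organelle, and all 13 such genes were called higher, 12 with bounds apart. COX1, a core subunit of cytochrome c oxidase, had 11703 FPKM (bounds 7228 to 16179) at 38 h AHS and 1175 FPKM (bounds 874 to 1476) at no HS, 9.96-fold higher. ATP6, a subunit of ATP synthase, had 5481 FPKM at 38 h AHS and 663 at no HS, and ND6 of complex I had 923 and 112 FPKM. The smallest change was that of ND3, with 1085 FPKM at 38 h AHS and 349 at no HS, 3.11-fold. Together the 13 genes held 3.60% of all footprints at 38 h AHS and 0.471% at no HS. The RNA-seq table lists all 13 at 0 at every time, so no RNA level stands beside these values.

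The nuclear genes of the same complexes did not share that rise. Of 65 members of the nuclear list of the respiratory chain and ATP synthase, 1 was called higher and 3 lower. Over all members 3.82% were called higher and 5.24% lower. The median log2 change of the list was -0.07, against 2.75 for the 13 mitochondrial genes. COX6B, a nuclear subunit of cytochrome c oxidase, had 1604 FPKM (bounds 1227 to 1981) at 38 h AHS and 3147 FPKM (bounds 2437 to 3856) at no HS.

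Across the time course the mitochondrial genes fell into high and low times. For COX1 the FPKM was 1175 before heat shock, then 742 (0.5 h), 14967 (5 h), 17338 (9 h), 1121 (18 h), 5245 (28 h) and 11703 (38 h AHS). In all 13 genes all of the times 5, 9, 28 and 38 h lay above the no HS column and the 0.5 and 18 h AHS columns. Arc1 (chr2R:14359439-14360200), a retrotransposon-derived capsid gene and the largest rise of all members above 0 in both columns (10.9-fold), was high at the same times, with 56.8, 139, 701, 1106, 73.2, 189 and 619 FPKM from no HS to 38 h AHS.

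The largest falls showed the mirror image. The 15 largest falls with bounds apart were between 8.17-fold and 85.2-fold, and in all 15 the times 5, 9, 28 and 38 h AHS all lay below the other 3 columns. That 38 h AHS lay below no HS was fixed by their choice as falls. CG33700 had 0.449 FPKM (bounds 0 to 2.22) at 38 h AHS and 38.3 FPKM (bounds 23.0 to 53.5) at no HS, PGRP-SB2, of the peptidoglycan recognition family, 15.9 FPKM (bounds 6.18 to 25.7) and 576 FPKM (bounds 451 to 701), and CG31418 15.7 and 556 FPKM. The RNA of these genes was almost absent, since 12 of the 15 had under 1 FPKM in the RNA-seq at both times and the highest of all had 2.53 FPKM. B-H2 and scro, homeobox genes of the nervous system and eye, and Ir68a, of the ionotropic receptor family, were among them. At most 2.94% of the 28-base words of any of the 15 occurred in another coding sequence, and 5 shared a merged locus with another gene.

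This split of the times reached beyond the extremes. Of all members 656 (10.2%) had the no HS, 0.5 h and 18 h AHS columns above the other 4 and 168 (2.61%) had them below. Taking the direction that matches the call, the counts were 110 of 338 lower genes (32.5%) and 35 of 246 higher genes (14.2%). The no HS and 38 h AHS columns enter both the call and the split. These 2 shares are thus raised by the choice of genes and cannot be compared directly with those over all members. RpL41, COX6B, TpnC73F and Mlc1 were on the low side, and grk and Cp15 on the high side, while alphaTub67C, bru1, orb, Rbp9, bam, bgcn, stau and cona were on neither. When the genes of this split were left out, 211 members were called higher and 228 lower, of which 83 and 74 had bounds apart. The labels give no run or preparation date that could be set beside these times, and what the 2 sets of times have in common was not tested.

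**Figure D4:**
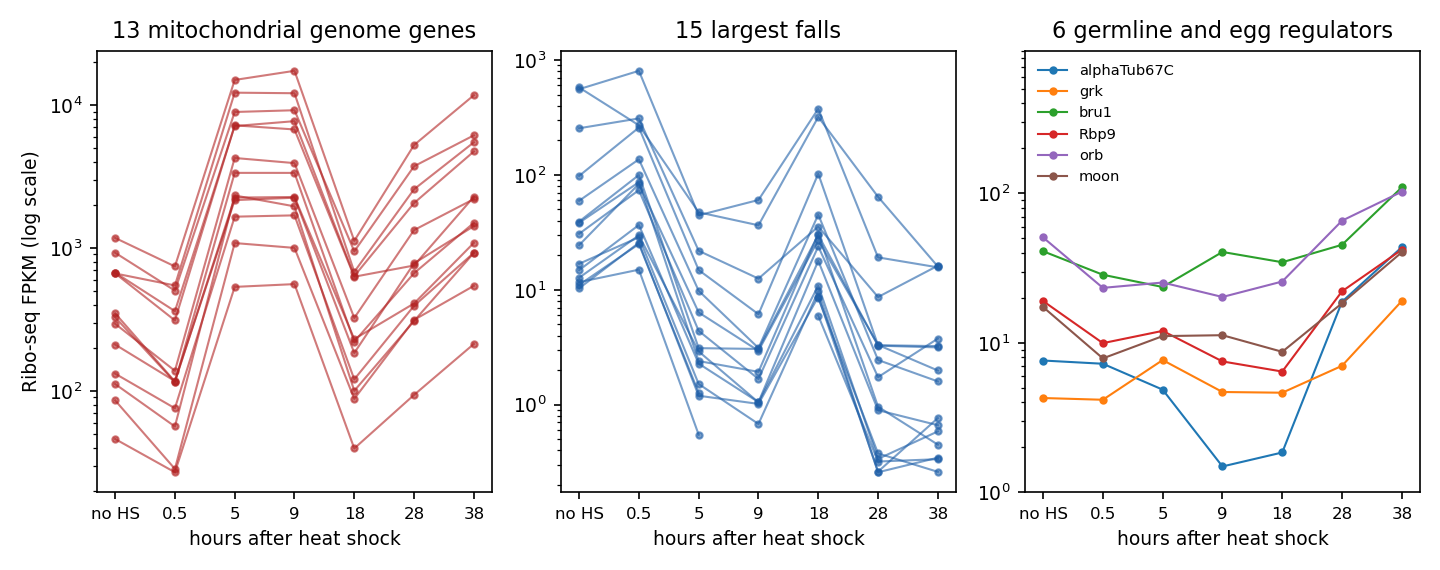
Ribo-seq FPKM (log scale) over time, from no HS on the left through 0.5, 5, 9, 18 and 28 h to 38 h AHS on the right, for the 13 mitochondrial genome genes, the 15 largest falls with bounds apart and 6 germline and egg regulators (values at 0 are left out). The mitochondrial genes are high and the largest falls low at 5, 9, 28 and 38 h, and the 6 regulators have their highest value at 38 h AHS.

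The 28 h AHS values are set beside those of 38 h. Both are relative to the same no HS column, so the comparisons are not independent. The called higher genes above 0 at all 3 times (232) had median log2 values of 0.94 (38 h AHS) and 0.58 (28 h AHS). The called lower genes (322) had medians of -0.90 and -0.69. Both sets, which include alphaTub67C, bru1 and grk, were called at 38 h AHS. Weaker changes at 28 h AHS are thus partly given by that choice. alphaTub67C had 43.7 FPKM at 38 h AHS and 18.8 at 28 h, bru1 109.8 and 45.3, and grk 19.1 and 7.02. For the eggshell and yolk list the 28 h values had a median log2 change of 1.43 from no HS, against 0.63 at 38 h AHS.

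The RNA-seq of the same time points gives a measure from separate libraries. Of the members, 5810 also exceeded 10 FPKM of RNA at one of the 2 times, and in these the RNA differed by more than 1.6-fold upward in 102 (1.76%) and downward in 30 (0.516%). Among genes with called higher footprints the RNA was higher past the same fold in 50 of 148 (33.8%), with a median log2 change of RNA of 0.50. Among genes with called lower footprints the RNA was lower in 14 of 230 (6.09%), with a median of -0.06, and RNA within 1.2-fold of no HS was found in 143 of them. Across these genes Pearson's r between both log2 changes was 0.40 (5809 genes, which are not independent replicates).

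Single genes showed each relation, and Cks30A, Ppox and zip are given as examples picked after their values were seen. In alphaTub67C the RNA was 42.2 FPKM at 38 h AHS and 5.93 at no HS (log2 change 2.83), beside a footprint log2 change of 2.52. In grk the RNA log2 change was 1.07 and that of footprints 2.16, and in bgcn they were -1.71 and -1.55. In these genes both assays differed in the same direction. In cona the RNA was 17.1 FPKM at 38 h AHS and 25.9 at no HS (log2 change -0.59), and footprints changed by -1.59. Cks30A, a Cdk-binding protein of female meiosis, had 75.2 FPKM (bounds 37.4 to 113) of footprints at 38 h AHS and 288 FPKM (bounds 199.7 to 377) at no HS (log2 change -1.94), with RNA of 52.6 FPKM at 38 h AHS and 40.4 at no HS. Ppox, an enzyme of heme synthesis, had 28.3 and 101 FPKM of footprints at those times, and its RNA was 14.8 and 11.5 FPKM. In Cks30A and Ppox the footprints were thus lower at 38 h AHS while the RNA was not. The footprints of Ppox at 5, 9, 28 and 38 h AHS all lay below those at no HS, 0.5 and 18 h AHS. The part of this split of the times in the fall of Ppox was not tested, and Cks30A did not follow the split. On the higher side, zip, the heavy chain of non-muscle myosin II, had 262 FPKM (bounds 201 to 324) of footprints at 38 h AHS and 126 FPKM (bounds 98.6 to 154) at no HS, with RNA of 240.3 and 229.9 FPKM.

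**Figure D5:**
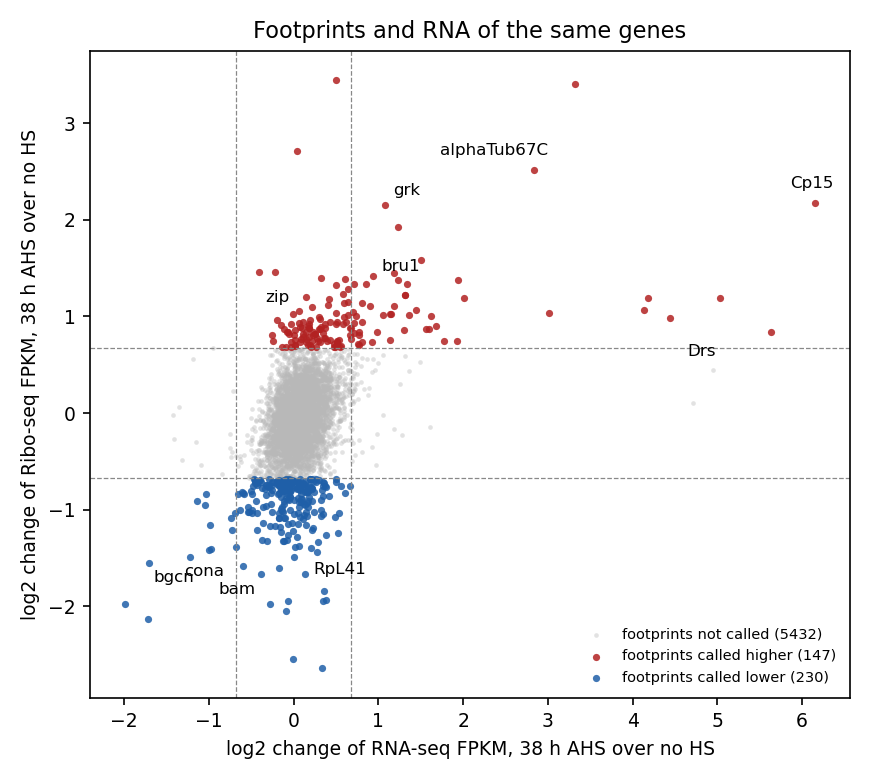
Log2 change at 38 h AHS over no HS in Ribo-seq FPKM (vertical) and RNA-seq FPKM (horizontal) for members over 10 FPKM of RNA at one of the 2 times and above 0 at both in both assays; dashed lines mark 1.6-fold. Red points are called higher and blue points lower in the footprints, and the red points spread to the right (median RNA log2 change 0.50), while the blue points centre near 0 (-0.06).

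Genes listed at 0 in one column were mostly very short. There were 14 members at 0 at 38 h AHS and 14 at 0 at no HS, no fold is given for them, and in 24 of the 28 the coding sequence had 300 bases or fewer. Those at 0 at 38 h AHS had between 10.4 and 47.3 FPKM at no HS, and they include MtnC, a metallothionein, with 43.0 FPKM, and Bace, a protease gene, with 10.4 FPKM. Those at 0 at no HS had between 10.3 (CG42866) and 70.4 FPKM (CG46309) at 38 h AHS, and TotA, a stress-induced Turandot gene, had 28.4 FPKM (bounds 13.2 to 43.6) at 38 h AHS.

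The length of the coding sequence moved with the calls. It was known for 6066 members, and in the shortest of 8 equal groups (477 bases or fewer) 6.96% were called higher and 13.1% lower, against 1.72% and 1.46% in the longest group (3036 bases or more). The median half-width of the bounds at 38 h AHS was 33.0% in the shortest group and 23.2% in the longest. Only 15 members shared more than 50% of their 28-base words with another coding sequence, and 550 shared a merged locus with another gene.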

How the data were processed

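Ribosome footprints (28 to 34 nt) and rRNA-depleted RNA were sequenced by the authors from ovaries at 7 times, 2 replicates each. They trimmed adapters with Trim Galore, removed duplicate reads and random end bases (Ribo-seq) and non-coding RNA (Bowtie or Bowtie2), mapped reads to dm6 with STAR and estimated expression with Cuffdiff 2.2.1. The deposited FPKM tables give 1 value per gene and time over both replicates, with 95% bounds 2 standard errors away, and a status, OK for all members. The library normalization is not given in the sources used here. Ribo-seq loci run over coding sequences.

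Folds were ratios of the deposited FPKM, with no pseudocount, computed with Python 3.11.15, numpy 2.4.6 and pandas 2.3.3, and the code that makes the calls was checked on simulated data with known differences. Coding lengths, 28-base words and sequences come from the BDGP6 annotation and the Release 6 genome. Named were, per direction, the 15 largest folds with bounds apart, genes at 0 in one column, genes the study names, the 5 highest FPKM and up to 4 genes per list. The members, thresholds and lists were chosen with earlier results of these data known. Alternatives changed the fold, the minimum, the pseudocount, the scale and the genes included. The depth per library is not listed in the tables, so precision was read from the bounds.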

Additional observations from a re-analysis of the deposited data

How the results depend on the processing

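The counts followed the thresholds. A fold threshold of 2 left 119 higher and 145 lower genes, or 62 and 72 with bounds that do not overlap. A minimum of 20 FPKM left 153 higher genes, and with no minimum 780 were higher and 934 lower. Leaving out genes whose no HS, 0.5 and 18 h values were all above or all below those at 5, 9, 28 and 38 h AHS, an alternative chosen after seeing the data, left 74 lower genes with bounds that do not overlap, and the other counts under it stayed within 1.5 times. A pseudocount of 1 FPKM, rescaling by the median log2 change of -0.04, and leaving out heat shock and eggshell genes, genes of a shared locus, genes with little RNA (added later) or mitochondrial genes (added later) kept every count within 1.5 times. All 24 list medians moved by less than the median standard error of their single genes under each alternative tried. That error is a wide measure for a median over many genes. The largest shift was 0.22 in log2, and 6 medians close to 0 changed sign. Of 142 named genes with a fold, no called one changed direction, and 5 of the largest falls moved by more than their standard error with the pseudocount. No paired analysis was possible because the deposited columns pool both replicates, and for that reason no replicate could be left out. Short genes and genes near 10 FPKM have the widest bounds, so a difference in them was often not detectable at this depth.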

Other observations

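Some genes had footprints almost only in 1 column. Counting all genes over 2 FPKM and over 5 times their value at every other time, there were 11 at 38 h AHS and 31 at no HS, with 58 at 0.5 h AHS and 5 at 18 h AHS. These genes were looked at after their values were seen. Those of the no HS column include digestive enzyme genes of the gut. The serine protease gene Jon65Aiv had 11.0 FPKM at no HS, the trypsin genes alphaTry and betaTry 5.71 and 3.83, and the maltase genes Mal-A1 and Mal-A7 2.93 and 3.45, and all were listed at 0 at 38 h AHS. The trypsin and maltase genes were under 10 FPKM and are not members. Of the 28-base words, 49.4% in alphaTry and 26.6% in betaTry also occurred in another coding sequence. Also in the no HS column were Sfp70A4, a seminal fluid protein gene, with 36.6 FPKM, and Mst84Da, a male germline gene, with 10.6 FPKM, both at 0 at 38 h AHS. The source of these footprints was not tested. Of the 38 h AHS column, the stress-induced gene TotA had 28.4 FPKM, at most 4.98 FPKM at any other time, and 0 at no HS.

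A set of 61 members had RNA within 1.2-fold at both times and called footprints with bounds apart, and a few are named here after their values were seen. Of these, 14 were higher and 47 lower at 38 h AHS. In 32 of the 47 lower genes and 3 of the 14 higher ones the times 5, 9, 28 and 38 h AHS lay all on one side of no HS, 0.5 and 18 h AHS, in the direction of the call, and the part of that split in these differences was not tested. The call itself fixes the order of no HS and 38 h AHS, so part of these counts was given in advance. Besides zip the higher ones include jar, the fly myosin VI, with 32.5 FPKM at 38 h AHS and 19.9 at no HS, and Mhc, all encoding myosin heavy chains. None of these 3 genes followed that split at every time, because their 5 h AHS value was not above that of 18 h AHS. Their 9, 28 and 38 h AHS values did lie above no HS, 0.5 and 18 h AHS, as in that split. Among the lower ones TFAM, which packs and transcribes mitochondrial DNA, had 70.7 FPKM at 38 h AHS and 129 at no HS. TFAM missed the split only by its 9 h AHS value of 124 FPKM. The gene levy, a nuclear subunit of cytochrome c oxidase with 943 FPKM at 38 h AHS and 1622 at no HS, followed the split.

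In 67 members the RNA differed by more than 1.6-fold, 52 higher and 15 lower at 38 h AHS, and the footprints were not called. A pair of them is given here, chosen after their values were seen. Cyclin B (CycB) had 123 FPKM of RNA at 38 h AHS and 64.8 at no HS, with 71.9 and 91.9 FPKM of footprints. The antifungal peptide gene Drs had 97.1 FPKM of RNA at 38 h AHS and 3.15 at no HS, with 60.3 and 44.3 FPKM of footprints. The footprint bounds of Drs were wide, 18.4 to 102 at 38 h AHS and 4.43 to 84.1 at no HS, so its footprint change is not resolved.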
